A study of Mus musculus with 4 samples.

Results

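Striatal projection neurons are the output cells of the striatum, and 8 genes that they express strongly were followed in the medial prefrontal cortex (mPFC) of stressed and unstressed mice. The genes were taken by symbol from the deposited expression table, and all 8 were found among its 17778 genes. They were 3 receptors (Drd1a, Drd2 and Adora2a), 2 enzymes of cyclic AMP (cAMP) turnover (Adcy5 and Pde10a), 1 phosphatase inhibitor (Ppp1r1b) and 2 regulators of G protein signalling (Rgs9 and Rasd2). They are named by symbol as genes known from these neurons, and they were chosen with earlier results of these data known, so that their shared direction is a description.

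Poly(A) RNA was sequenced from the mPFC of male mice (strain C57BL/6 in the labels, C57BL/6J in the methods), with the tissue of both hemispheres dissected. The methods describe juvenile mice at the start. Adaptation, weeks of stress or control housing and the behaviour tests came before the tissue was taken. Mice in the CUMS group (2 libraries) went through chronic unpredictable mild stress (CUMS), a changing schedule of isolation, tilted, empty or damp cages, restraint, noise, strobe light and disturbed lighting. Only stressed mice that scored as depression-like in sucrose preference, Y-maze and forced swimming alike were taken, so that stressed mice without this behaviour have no library here. The control mice (2 libraries) lived without these stresses, and the labels give no transgene or other allele for either group. RNA was isolated from each mouse, but whether each library held the RNA of a single mouse was not stated.

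A striatal projection neuron receives glutamate from the cortex and dopamine from the midbrain, and it passes both on through cAMP. In the direct pathway, the Drd1a receptor raises cAMP through a stimulatory G protein. In the indirect pathway, Drd2 lowers it and the adenosine receptor Adora2a raises it. Adcy5 makes the cAMP, Pde10a breaks it down, and protein kinase A turns Ppp1r1b into an inhibitor of protein phosphatase. Rgs9 shortens the signal of Drd2, and Rasd2 is a small G protein that dampens cAMP signalling. These genes are strongest in the striatum, but several of them, among them Drd1a, Drd2 and Ppp1r1b, are known in some neurons of the frontal cortex as well.

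The 8 genes lie on 7 mouse chromosomes (GRCm38.p6 coordinates from RefSeq). Drd1a, which RefSeq now calls Drd1 (gene 13488), spans 54051183 to 54055658 of chromosome 13 on the minus strand. Drd2 (gene 13489) spans 49340360 to 49408177 of chromosome 9, and Adora2a (gene 11540) spans 75316877 to 75334792 of chromosome 10, both on the plus strand. Adcy5 (gene 224129) spans 35154494 to 35305743 of chromosome 16, and Pde10a (gene 23984) spans 8525187 to 8986648 of chromosome 17, both on the plus strand. Ppp1r1b (gene 19049) spans 98348406 to 98357796 of chromosome 11 on the plus strand. Rgs9 (gene 19739) lies on the same chromosome, 10.9 Mb away, at 109225348 to 109298181 on the minus strand. Rasd2 (gene 75141) spans 75213944 to 75224113 of chromosome 8 on the plus strand. The 8 genes are therefore no neighbours in the genome.

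Promoter windows of RefSeq (GRCm38.p6, 250 bases before to 50 bases after a gene start) matched 6 of the 8 genes with 8 windows (2 each for Drd1a and Pde10a), and Adora2a and Ppp1r1b are named only. The 4 stretches below belong to both dopamine receptors and both G protein regulators, genes that were all lower in CUMS (below), and they are shown because each ends 1 base before the first base of any annotated transcript of its gene. All are 5′ to 3′ on the strand of the gene, and capitals mark the 6 letters of the GC box, GGGCGG, or its reverse complement CCGCCC. The cAMP response element core, TGACG, or its reverse complement CGTCA, was searched for as well and would also have been in capitals. The stretch of Drd1a is chr13:54055706-54055908 (minus strand), that of Drd2 is chr9:49340153-49340359 (plus strand), that of Rgs9 is chr11:109298182-109298431 (minus strand) and that of Rasd2 is chr8:75213694-75213943 (plus strand).
Drd1a: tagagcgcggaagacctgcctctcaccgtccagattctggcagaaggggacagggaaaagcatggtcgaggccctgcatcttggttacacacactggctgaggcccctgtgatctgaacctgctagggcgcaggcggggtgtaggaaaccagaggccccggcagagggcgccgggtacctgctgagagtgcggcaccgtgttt
Drd2: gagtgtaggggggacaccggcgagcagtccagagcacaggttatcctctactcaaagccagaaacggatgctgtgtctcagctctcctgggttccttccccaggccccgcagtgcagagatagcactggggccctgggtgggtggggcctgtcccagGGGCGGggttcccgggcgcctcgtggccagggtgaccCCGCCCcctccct
Rgs9: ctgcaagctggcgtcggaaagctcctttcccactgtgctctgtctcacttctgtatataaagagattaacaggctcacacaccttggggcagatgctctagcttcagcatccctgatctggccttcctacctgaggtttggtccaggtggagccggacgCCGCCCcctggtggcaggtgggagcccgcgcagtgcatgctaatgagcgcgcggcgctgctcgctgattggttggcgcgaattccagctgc
Rasd2: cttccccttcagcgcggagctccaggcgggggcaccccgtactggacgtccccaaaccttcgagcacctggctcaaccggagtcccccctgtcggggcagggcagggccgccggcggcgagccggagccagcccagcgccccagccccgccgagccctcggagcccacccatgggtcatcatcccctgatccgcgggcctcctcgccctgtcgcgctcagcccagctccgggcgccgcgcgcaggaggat

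Over whole windows and both strands, the core TGACG stood in 0 of the 8 windows of these genes and in 20.8% of all 32851 windows. The full element TGACGTCA, which contains the core, stood in 0 of the 8 windows and in 1.79% of all. The GC box stood in 7 of the 8 windows, in all but that of Rasd2, and in 35.7% of all windows. The letters TATAAA, or TTTATA on the other strand, stood in 1 of the 8 windows, that of Rgs9, and in 13.6% of all. The windows were rich in G and C, from 56.7% to 79.0%, where the median of all windows was 52.7%. A match of letters describes the window and is not a binding site.

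The deposited table held 1 mean RPKM (reads for each kilobase of gene length, relative to library size) for each gene and group, so that the value of a single library cannot be given. No difference below has a replicate check, the groups cannot be tested for overlap, and no p-value is given. The depth behind the means was estimated from the steps of the low values as 7473842 fragments in each control library and 7485030 in each CUMS library. The intervals below are 95% counting intervals on these estimated fragments (exact Clopper-Pearson for a ratio, exact Poisson for a level). They cover counting error only and leave out the spread between mice. Over all 14257 genes that reached 0.5 RPKM in at least 1 group, the median log2 ratio of CUMS over control was -0.015. The tissue carried the markers of neocortex, with Slc17a7, the vesicular glutamate transporter of cortical excitatory neurons, at 635 RPKM in control and 791 in CUMS.

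The comparison of CUMS with control asked how gene expression in the mPFC differs in depression-like mice. All 8 striatal projection neuron genes had a lower mean in CUMS, where 52.7% of all genes in the table had one. Their differences were small, from 10.8% lower for Ppp1r1b to 26.7% lower for Adora2a, and the median log2 ratio of the 8 was -0.29, a ratio of 0.817. None of the 8 passed the 1.5-fold threshold (0 of 8), which 4.42% of genes of at least 0.5 RPKM passed downward and 2.78% upward. Among the 9397 genes that reached 5 RPKM, as all 8 did, 120 passed it downward and 30 upward. At a looser threshold, a CUMS mean under 0.8 of the control mean, 3 of the 8 genes passed (Drd2, Rasd2 and Adora2a), and so did 11.3% of genes of at least 0.5 RPKM. The counting interval lay under 0 for 8 of 8 genes. Over genes of at least 0.5 RPKM, it lay under 0 for 16.8% and above 0 for 12.6%. Over the 9397 genes of at least 5 RPKM, it lay under 0 in 1822 and above 0 in 1498. The sum over the 8 genes was 442 RPKM in control and 370.3 in CUMS, 16.1% lower.

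**Figure D1:**
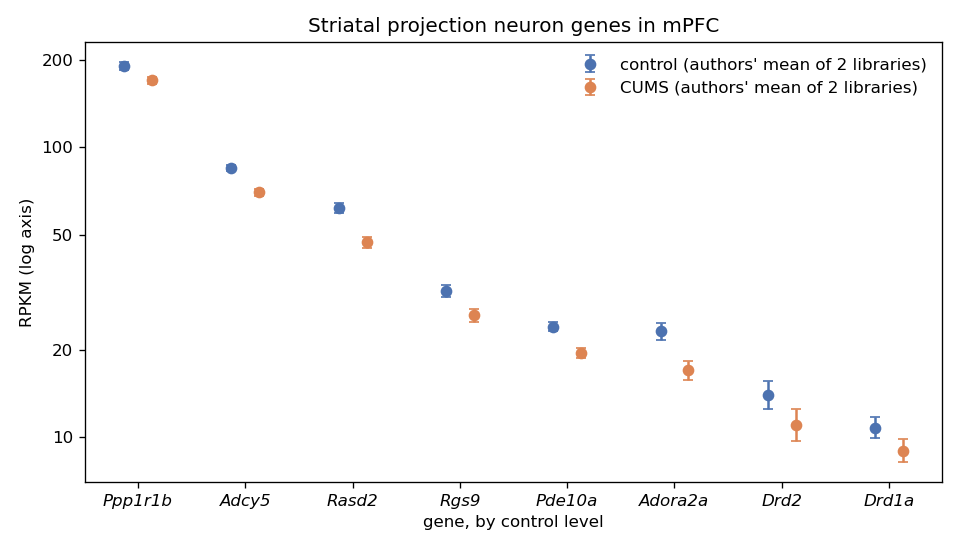
Level of each of the 8 genes in the mPFC, as the authors' mean RPKM of 2 libraries on a log axis, for control (blue) and CUMS (orange), with the genes ordered by control level. Bars are 95% counting intervals on estimated fragments, and the CUMS point lies under the control point for 8 of 8 genes, from Ppp1r1b (191 and 170.4 RPKM) to Drd1a (10.8 and 8.99 RPKM).

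In bulk tissue, fewer cells of a type and less RNA per cell cannot be told apart, and this holds for each gene below. Among the receptors, Drd1a, the dopamine receptor of the direct pathway, was 10.8 RPKM in control (572 estimated fragments over both libraries) and 8.99 RPKM in CUMS (477 fragments). The CUMS level was 16.8% lower, a log2 ratio of -0.26 (counting interval -0.44 to -0.09). Drd1a had the lowest level of the 8 genes in both groups, and even so it stood above 63.9% of all genes in the control mPFC.

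Drd2, the dopamine receptor of the indirect pathway, was 14.0 RPKM in control (324 fragments) and 11.02 RPKM in CUMS (256 fragments). The log2 ratio was -0.34 (-0.58 to -0.10), which is 21.2% lower. This is the widest interval of the 8, since Drd2 had the fewest fragments.

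Adora2a, the adenosine receptor that shares indirect pathway cells with Drd2, was 23.2 RPKM in control (879 fragments) and 17.0 RPKM in CUMS (645 fragments). Its log2 ratio of -0.45 (-0.60 to -0.30) was the lowest of the 8 genes, and the end of its interval reached past the 1.5-fold threshold. Among 9397 genes that reached 5 RPKM, 2.42% had a lower ratio than Adora2a.

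The enzyme that makes cAMP in the striatum, Adcy5, was 84.7 RPKM in control (6409 fragments) and 70.0 RPKM in CUMS (5301 fragments). Its log2 ratio was -0.28 (-0.33 to -0.22), 17.4% lower. With the most fragments of the 8, it had the narrowest interval. Pde10a, the phosphodiesterase that breaks down cAMP and cyclic GMP in these neurons, was 24.1 RPKM in control (2778 fragments) and 19.5 RPKM in CUMS (2252 fragments). The log2 ratio of Pde10a was -0.30 (-0.39 to -0.22), 19.0% lower. The enzyme that makes cAMP and the enzyme that degrades it thus had intervals that overlapped widely.

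Ppp1r1b, the dopamine- and cAMP-regulated phosphoprotein, had the highest level of the 8 genes, above 98.2% of all genes in control. It was 191 RPKM in control (4804 fragments) and 170.4 RPKM in CUMS (4291 fragments). Its log2 ratio of -0.17 (-0.22 to -0.11) was the closest to 0 of the 8, 10.8% lower. In RPKM, this was the largest difference of the 8 (-20.7 RPKM), because the level was the highest. Of its exonic bases, 460 of 2928 (15.7%) are shared with 1700003D09Rik, a transcript of the opposite strand, and the use of strand in counting was not stated, so that the reads of these bases cannot be told apart. 1700003D09Rik itself was 2.57 RPKM in control and 2.55 in CUMS, far below Ppp1r1b. In the GENCODE annotation, no exon of the other 7 genes was shared with another gene.

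Rgs9, which speeds up the end of G protein signals, was 32.0 RPKM in control (1589 fragments) and 26.3 RPKM in CUMS (1310 fragments). Its log2 ratio was -0.28 (-0.39 to -0.17), 17.6% lower. Rasd2, also known as Rhes, a small G protein enriched in the striatum, was 61.8 RPKM in control (2595 fragments) and 47.1 RPKM in CUMS (1981 fragments). The log2 ratio of Rasd2 was -0.39 (-0.48 to -0.31), 23.8% lower, the lowest ratio after Adora2a. Between Adora2a and Ppp1r1b, the share of genes of at least 5 RPKM with a lower ratio than the gene went from 2.42% to 16.6%.

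**Figure D2:**
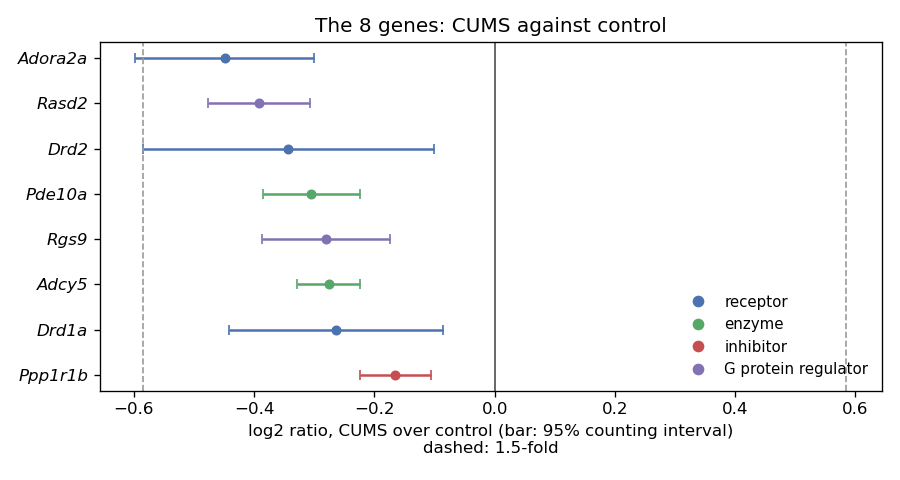
Log2 ratio of CUMS over control for the 8 genes, ordered from the lowest, with 95% counting intervals and coloured by role. All 8 intervals lie under 0, from Adora2a at -0.45 to Ppp1r1b at -0.17, and all 8 points lie inside the dashed lines of a 1.5-fold difference.

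**Figure D3:**
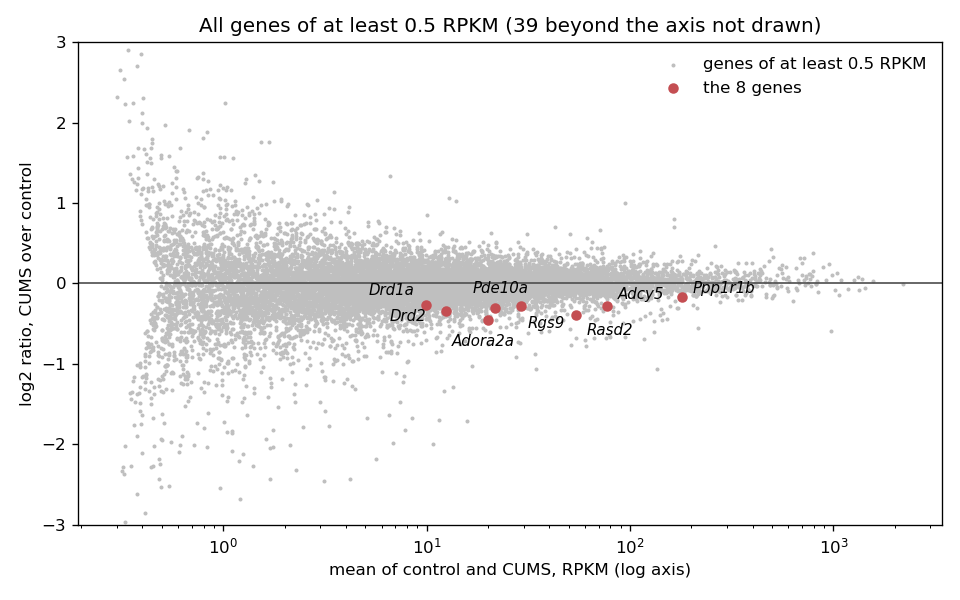
Log2 ratio of CUMS over control against the mean of both groups in RPKM (log axis) for 14257 genes of at least 0.5 RPKM (grey), with the 8 genes in red. The 8 genes lie in the lower part of the grey cloud, and 39 genes beyond a log2 ratio of 3 in either direction are not drawn.

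How far the 8 genes differed among themselves was compared in 28 pairs, with unadjusted counting intervals for the difference of the log2 ratios. The interval left out 0 in 6 of the 28 pairs, and 4 of these 6 involved Ppp1r1b. The log2 ratio of Adora2a was lower than that of Ppp1r1b by a difference of -0.28 (-0.44 to -0.13), and that of Rasd2 was lower too, with Ppp1r1b minus Rasd2 at 0.23 (0.12 to 0.33). Ppp1r1b was also closer to 0 than Pde10a (Pde10a minus Ppp1r1b -0.14, -0.24 to -0.040) and than Adcy5 (Adcy5 minus Ppp1r1b -0.11, -0.19 to -0.032). The remaining pairs were Adora2a minus Adcy5, at -0.17 (-0.33 to -0.017), and Adcy5 minus Rasd2, at 0.12 (0.016 to 0.21). The other 22 intervals held 0, which does not show that those genes shared 1 ratio.

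By level, the order was the same in both groups and ran Ppp1r1b, Adcy5, Rasd2, Rgs9, Pde10a, Adora2a, Drd2 and Drd1a. In control, only Pde10a (23.2 to 25.0 RPKM) and Adora2a (21.7 to 24.8 RPKM) were neighbours whose counting intervals overlapped. In CUMS, only Drd2 (9.73 to 12.5 RPKM) and Drd1a (8.20 to 9.84 RPKM) overlapped. An RPKM depends on the gene length that the authors used, and for 3 of the 8 genes this length was under 0.9 of the longest GENCODE transcript. It was 1549 of 2547 bases for Drd2, 5060 of 7008 bases for Adcy5 and 1682 of 2001 bases for Ppp1r1b. With the longest transcript as the length, Drd2 came to 8.51 RPKM in control and 6.70 in CUMS, under Drd1a at 10.7 and 8.90 RPKM. The order of Drd1a and Drd2 therefore turned with the length, whereas the ratio of CUMS over control of a gene does not depend on it.

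The balance of the dopamine receptors was compared as the ratio of Drd1a over Drd2. By the deposited levels it was 0.772 in control (log2 -0.37, counting interval -0.57 to -0.18) and 0.815 in CUMS (log2 -0.29, -0.51 to -0.075). The difference between the groups was 0.079 on the log2 scale (-0.22 to 0.37), so that a shift between the receptors was not detectable at this depth. Adora2a minus Drd1a, another contrast of an indirect with a direct pathway receptor, was -0.18 (-0.41 to 0.045) and also held 0.

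A further 28 genes of striatal projection neurons, peptides, receptors, signalling proteins and transcription factors, were read from the same table. All 28 reached 0.5 RPKM in at least 1 group, and 22 had a lower and 6 a higher mean in CUMS. Their median log2 ratio was -0.20, where the 8 genes had -0.29 and all genes -0.015. Over those of at least 5 RPKM the median was -0.10. The interval lay under 0 in 14 of the 28 and above 0 in 1, and 4 were lower by more than 1.5-fold while 0 were higher by as much. Over all genes of at least 0.5 RPKM, these shares were 16.8%, 12.6%, 4.42% and 2.78%. A lower mean was found in 52.7% of all genes in the table. Since several of them, such as Foxp1, Bcl11b and Scn4b, are known in cortical neurons as well, the list is not specific to striatal cells.

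Among the neuropeptides, Penk, the precursor of enkephalin in indirect pathway cells, was 166 RPKM in control and 121 in CUMS, a log2 ratio of -0.46 (-0.53 to -0.39). Tac1, the precursor of substance P in direct pathway cells, was 50.5 and 47.0 RPKM, with -0.10 (-0.25 to 0.05). Pdyn, the precursor of dynorphin in direct pathway cells, was 25.3 and 25.4 RPKM, with a log2 ratio of 0.0046 (-0.24 to 0.25). The indirect pathway peptide was thus lower relative to those of the direct pathway. Penk minus Tac1 was -0.36 (-0.52 to -0.19) and Penk minus Pdyn was -0.46 (-0.71 to -0.21), both beyond counting error. For the receptors, Drd2 minus Drd1a was -0.079 (-0.37 to 0.22), an interval that held 0. Penk, Tac1 and Pdyn are also known in interneurons of the cortex. By pathway, 4 of 5 further indirect genes were lower (median log2 ratio -0.46), 5 of 8 direct genes were lower (median -0.11) and 13 of 15 genes of both pathways were lower (median -0.20). The indirect median is the ratio of Penk itself, so that it adds nothing to the contrast of the peptides. Among the other indirect genes, the intervals of Gpr6 and Gpr52 held 0 and those of Sp9 and Six3 lay under it. The direct genes reached down to Isl1 at -1.19.

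The 4 genes past 1.5-fold all had levels under those of the 8 genes. They were Isl1, a transcription factor of direct pathway cells, at 2.71 and 1.19 RPKM (log2 ratio -1.19, -1.72 to -0.66), and Six3, a transcription factor of indirect pathway cells, at 4.17 and 1.955 RPKM (-1.09, -1.43 to -0.75). Sp9, another transcription factor of indirect pathway cells, was 7.67 and 4.08 RPKM (-0.91, -1.18 to -0.64). Ido1, an enzyme of tryptophan breakdown, was 1.10 and 0.445 RPKM, from 26 and 10 fragments (-1.31, -2.60 to -0.28). Isl1 is also known in cholinergic neurons of the forebrain, and Sp9 in new neurons of the olfactory bulb.

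Several genes of both pathways had ratios nearer to 0 than the 8 genes. Pde1b, a calcium-dependent phosphodiesterase, had -0.09 (-0.15 to -0.04), and Scn4b, a sodium channel subunit, had -0.08 (-0.16 to -0.0020). Gnal, the stimulatory G protein that couples Drd1a and Adora2a to Adcy5, was 52.5 and 51.2 RPKM, with -0.04 (-0.10 to 0.03). The interval of Gnal lay wholly closer to 0 than that of Adcy5, its target. Bcl11b, a transcription factor, had -0.03 (-0.13 to 0.06). The highest ratios of the list belonged to Foxp1, a transcription factor at 0.20 (0.08 to 0.32), and to Eya1, a transcriptional cofactor at 0.11 (-0.30 to 0.53).

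**Figure D4:**
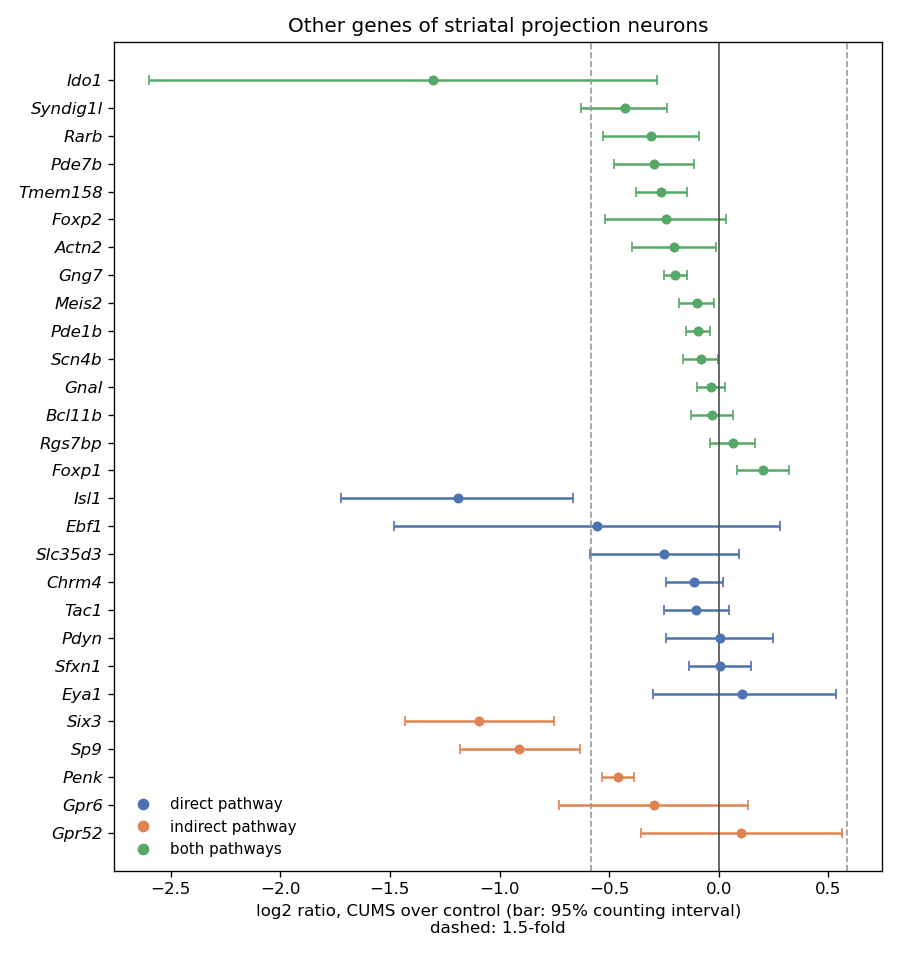
Log2 ratio of CUMS over control for 28 further genes of striatal projection neurons, with 95% counting intervals, coloured by the pathway in which they are known (direct, indirect or both). Points lie left of 0 for 22 of the 28 genes, 4 of them (Ido1, Isl1, Six3 and Sp9) past the dashed line of a 1.5-fold difference.

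The pathway in which the 8 genes work was read over 42 further genes of dopamine and cAMP signalling. Of these, 41 reached 0.5 RPKM, with 14 lower and 27 higher in CUMS and a median log2 ratio of 0.067. The interval lay under 0 in 6 and above 0 in 18 of the 41, where it lay under 0 for 16.8% and above 0 for 12.6% of all genes of at least 0.5 RPKM. By their means, 27 of the 41 listed genes thus did not share the direction of the 8 genes. Its 5 cyclases had a median of 0.11, its 5 phosphodiesterases one of -0.020 and its 4 G proteins one of 0.11. Its 9 G protein regulators, the class of Rgs9 and Rasd2, had a median of -0.056, with 5 lower and 4 higher. The interval lay under 0 in 3 of these 9 and above 0 in 4.

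The other dopamine receptors were scarce. Drd3 had 9 fragments in control and 5 in CUMS, under 0.5 RPKM in both, and Drd4 had 3 and 11 fragments, 0.135 and 0.55 RPKM (log2 ratio 2.03, -0.05 to 4.35). Drd5, the other receptor that raises cAMP, was 1.68 and 2.16 RPKM (0.36, -0.09 to 0.85). At these depths no difference was detectable for Drd3, Drd4 or Drd5, and Drd1a and Drd2 were the main dopamine receptor transcripts of the tissue by RPKM.

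Relatives of the 8 genes differed in direction. Adcy8, a calcium-stimulated cyclase, was 6.18 and 4.84 RPKM, with a log2 ratio of -0.35 (-0.55 to -0.15), close to Adcy5. Pde2a, a phosphodiesterase of cortical neurons, was higher at 0.07 (0.03 to 0.11), where Pde10a was lower. Of the 5 phosphodiesterases in the list, 3 were lower and 2 higher. Prkar2b, a regulatory subunit of protein kinase A, had 0.08 (-0.04 to 0.20), and Arpp21, like Ppp1r1b a small target of that kinase, had 0.03 (-0.01 to 0.08). Gnb5, the G protein subunit that Rgs9 needs as its partner, was 80.3 and 73.8 RPKM, with -0.12 (-0.20 to -0.04). Rgs4, a G protein regulator abundant in cortex, was 112 and 146 RPKM, with 0.38 (0.33 to 0.44), opposite in direction to Rgs9. Rasd1, the closest relative of Rasd2 and a gene induced by glucocorticoids, was 6.31 and 2.53 RPKM, with -1.32 (-1.77 to -0.88). It was the only gene of the 41 lower by more than 1.5-fold, and Drd4 was the only gene higher by as much.

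Markers of several other cells and regions were lower in the same samples and are given here for whole lists. Of 8 markers of the septum and neighbouring forebrain, 8 were lower and 8 passed 1.5-fold. Their summed level was 84.1 RPKM in control and 27.6 in CUMS (median log2 ratio -1.67). Over all genes in the table, 52.7% had a lower mean, and 4.42% of those of at least 0.5 RPKM passed 1.5-fold downward. The markers Zic1, Prkcd, Nts, Dlk1, Ecel1 and Lhx8 lay between -2.01 and -1.34, and Crhr2 (-1.20) and Trpc4 (-0.79) were closer to 0. All 3 cholinergic markers were lower, with a summed level of 7.21 and 2.73 RPKM (median -1.54), Chat, which makes acetylcholine, among them at 2.75 and 0.945 RPKM. Of 6 olfactory bulb markers, 6 were lower, with sums of 35.8 and 16.9 RPKM (median -1.12). In this list 4 genes passed 1.5-fold and 5 had an interval under 0, whereas Slc17a6 was at -0.035 (-0.36 to 0.29). The septum, bulb and cholinergic sums thus differed by more than the 8 genes, whose largest log2 difference was -0.45.

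GABA neuron markers were lower in 3 of 3 genes (sums 279 and 173 RPKM, median log2 ratio -0.78), and oligodendrocyte markers in 5 of 5 (sums 604 and 433 RPKM, median -0.45). Striatal projection neurons are themselves GABA neurons, so that Gad1, Gad2 and Slc32a1 mark them too. Among markers of neocortex interneurons, 4 of 6 were higher (sums 455 and 493 RPKM, median 0.12). Sst alone was 314 and 326 RPKM of these sums. The intervals of Vip and Npy lay above 0, that of Lhx6 lay under 0 (-0.43, -0.63 to -0.23), and the others held 0. Excitatory neurons of the neocortex were higher in 10 of 10 markers, with sums of 905 and 1121 RPKM and a median log2 ratio of 0.32. Of all 14257 genes of at least 0.5 RPKM, 6639 were higher and 7589 lower. No marker of these lists stood at 0.01 RPKM, the stand-in for 0 in the table, in either group. All 3 GABA markers are genes that the study itself listed as lower in these samples. So are Zic1, Prkcd, Nts, Dlk1 and Ecel1 of the septum list, Th and Doc2g of the bulb list and Mobp of the oligodendrocyte list. The direction of these genes and their passing of 1.5-fold are therefore not independent evidence. The part of these other cells and of the dissected area in the values of the 8 genes was not tested.

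**Figure D5:**
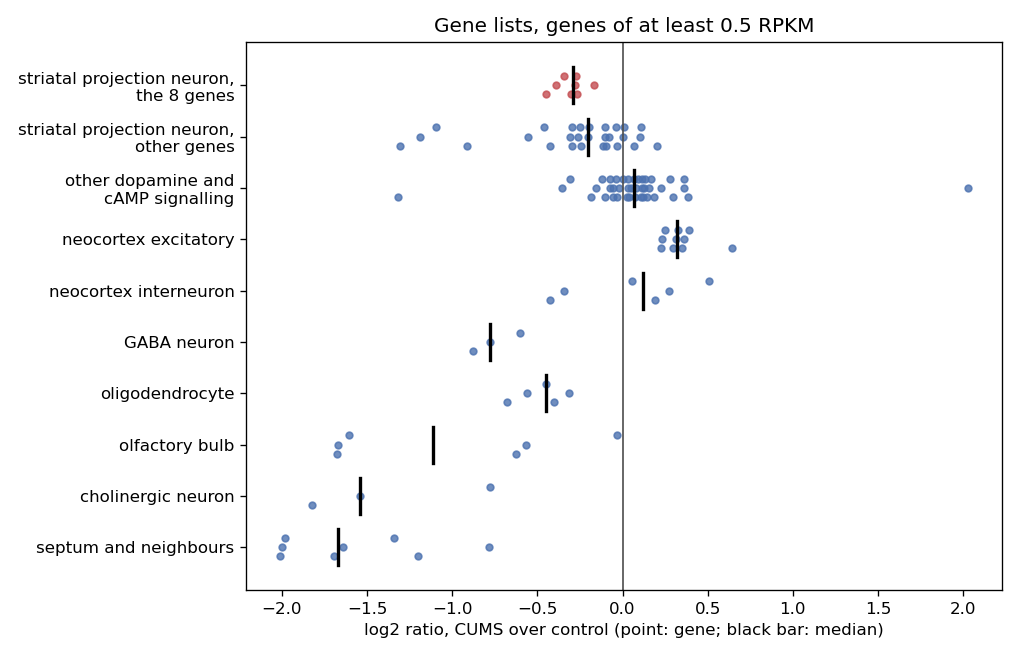
Log2 ratio of CUMS over control for each gene of at least 0.5 RPKM (points) in 10 lists, with the median of each list as a black bar. The 8 genes (red) have a median of -0.29 and lie between the markers of neocortex excitatory neurons (median 0.32) and those of the septum and neighbouring forebrain (median -1.67).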

How the data were processed

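Poly(A) RNA of the mPFC of CUMS-induced depression mice (2 libraries) and control mice (2 libraries) was sequenced from both fragment ends (Illumina HiSeq). Groups were taken from the sample labels. According to the methods and the submitters' processing notes, reads were aligned to mm10 with TopHat 1.0.12 and Bowtie 0.11.3, and only reads with a unique position entered the gene values. The annotation and the use of strand are not given in the sources used here. The values used are RPKM, which the authors averaged over the libraries of each group before they deposited them, with the gene length. The deposited table also holds the authors' log2 ratio and NOISeq probability, which were not used.

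From the RPKM means, log2 ratios were computed with no pseudocount. The 1.5-fold threshold is the study's. The study's methods also name 0.5 RPKM as a minimum, which was applied here as 0.5 RPKM in at least 1 group and left 14257 of the 17778 deposited genes. Fragments were estimated from the products of group mean and gene length in genes under 1000 bases with a product under 350. Steps of 66.9 (control) and 66.8 (CUMS) RPKM x bases fitted best, with 87.9% of 406 and 87.5% of 392 values within 0.15 of a whole number of steps. This depth assumes libraries of equal size and is lower than the number of reads that the study gives. The difference was not resolved, and a larger depth would narrow the intervals. Intervals of 95% were exact Clopper-Pearson for ratios, exact Poisson for levels and a normal approximation on the log scale for differences between genes. The scripts used Python 3.11.15, numpy 2.4.6, pandas 2.3.3, SciPy 1.17.1 and matplotlib 3.10.9, and were tested on simulated data.

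The 8 genes and the gene lists were chosen with earlier results of these data known. Named were all 8 genes, a set of genes with related roles, every gene of the 2 signalling lists past 1.5-fold, the 2 highest and the 2 lowest of each, and markers of other cells. A pair of genes of these lists is not reported here. Gene spans and promoter windows are from RefSeq (GRCm38.p6), and transcripts are from GENCODE on the same build. Alternatives were other scalings, filters, fold thresholds, depths, a pseudocount and another gene length. No limma fit was possible on group means.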

Additional observations from a re-analysis of the deposited data

How the results depend on the processing

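Of 56 values recomputed under alternatives, 51 stayed the same by a set rule. A ratio had to keep its sign and lie inside its main counting interval. For the median of a list, the medians of its genes' interval ends served as the interval. A count had to be equal to the main count or within 1.5-fold of it. The median log2 ratio of the 8 genes ranged from -0.30 to -0.28. The alternatives here were rescaling to a median of 0, rescaling to an equal total, other filters and a pseudocount of 0.5 RPKM. All 24 values of single genes under the rescalings and the pseudocount stayed negative. These outcomes were fixed in advance or nearly so. No filter left out any of the 8 genes, and a pseudocount cannot change the sign of a ratio. The rescalings shifted log2 ratios by only 0.015 and -0.0076. These values are among the 51 that stayed the same and are no independent check. At the planned looser threshold, a CUMS mean under 0.8 of the control mean, 3 of the 8 genes passed (Drd2, Rasd2 and Adora2a) beside 11.3% of genes of at least 0.5 RPKM, where 0 of the 8 passed 1.5-fold. With fragments at 0.5 times the estimated depth, the interval lay under 0 for 7 of the 8 genes. With at least 5 RPKM required, the median of the 28 further genes of striatal projection neurons was -0.10 in place of -0.20, which leaves out genes of lower level, Isl1, Six3 and Ido1 among them. With the length of the longest GENCODE transcript, an alternative chosen after seeing the data, the log2 level of Drd1a over Drd2 turned to 0.33 in control and 0.41 in CUMS, and that of Adcy5 over Rasd2 was -0.014 in control and 0.10 in CUMS, where the deposited lengths gave 0.46 and 0.57. This follows from the lengths alone and leaves the ratios of CUMS over control as they were. No paired analysis was possible because the deposited RPKM were means over each group, and limma, a replicate block and leaving out each library were not run for the same reason. Depth limits Drd3 and Drd4 most, and the spread between mice cannot be estimated for any gene.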

Other observations

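The nearest genes of at least 0.5 RPKM on either side of the 8 genes were read as well, 16 in all. Among these 16, 1700003D09Rik was taken as the neighbour of Ppp1r1b at higher coordinates, although it overlaps Ppp1r1b. Of these neighbours 11 had a lower mean in CUMS, their median log2 ratio was -0.064, and the counting interval lay under 0 in 4 and above 0 in 1. A lower mean was found in 52.7% of all genes in the table. The interval lay under 0 for 16.8% and above 0 for 12.6% of genes of at least 0.5 RPKM. Neurod2, a transcription factor of excitatory cortical neurons that lies 18760 bases from Ppp1r1b, was 23.3 RPKM in control and 29.9 in CUMS, with a log2 ratio of 0.36 (0.25 to 0.48), where Ppp1r1b had -0.17. Specc1l, which ends 4476 bases before Adora2a, was 13.7 and 12.2 RPKM, with -0.17 (-0.29 to -0.056), where Adora2a had -0.45. The gene 1700010I14Rik, which starts 1671 bases beyond the end of Pde10a, was 0.87 and 0.37 RPKM, with -1.23 (-2.49 to -0.15). These 3 were picked from the 16 after their values had been seen.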
